A study of Caenorhabditis elegans with 6 samples.

Results

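The genes described here are the protein-coding genes of *Caenorhabditis elegans* that lie inside the piRNA clusters of chromosome IV. They were chosen by position only: a gene belonged to cluster 1 when its midpoint lay between 4.5 and 7.0 Mb, and to cluster 2 when it lay between 13.5 and 17.2 Mb (WBcel235). This gave 934 genes, 478 in cluster 1 and 456 in cluster 2, of 3259 chromosome IV protein-coding genes and 22336 loci listed in the count files. The other 2325 chromosome IV protein-coding genes lay outside both intervals and served as the comparison. A further 4 annotated protein-coding genes with midpoints in the intervals were not among the listed loci and were not analysed here.

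*C. elegans* piRNAs, called 21U-RNAs, are transcribed one by one from a very large number of short autonomous units, most of which sit in introns and between genes of these chromosome IV regions. Bound to the PIWI Argonaute PRG-1, they find complementary transcripts in the germline, and RNA-dependent RNA polymerases then make 22G-RNAs, antisense RNAs that begin with G and are loaded onto other Argonautes. The 22G-RNA count of a gene therefore records how strongly its own transcript serves as a template, and is not a count of the 21U-RNAs encoded near it. The coding genes of the clusters are hosts and neighbours of piRNA units, and whether their position makes them piRNA targets was not tested.

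The libraries came from whole gravid adult cultures collected 65 hours after arrested first-stage larvae were plated. Of the 6 libraries, 3 were *lotr-1(sam117)* (strain RFK1256) and 3 were wild-type (N2). LOTR-1 is a germ granule protein with LOTUS and Tudor domains, and *sam117* removes its whole coding sequence, leaving the FLAG and GFP tag that had been fused to it. The mutant group is a single strain, so other differences between that strain and N2 cannot be told apart from the loss of *lotr-1*. The files hold 22G-RNA counts, which carry no tissue markers, and fewer germ cells and fewer 22G-RNAs per cell cannot be told apart in whole animals. Nothing in the labels says that the libraries of a genotype came from separate cultures, so p-values measure the spread between these libraries, which may be technical.

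Totals ran from 3368618 to 3810890 counts in the *lotr-1(sam117)* libraries and from 3150716 to 3829101 in the wild-type libraries. The deleted gene, *lotr-1* (WBGene00008385, chromosome I, 8487618 to 8490938), had 40, 49 and 60 counts in the *lotr-1(sam117)* libraries and 477, 522 and 563 in the wild-type libraries, so all 6 libraries went with their labels. Values below are counts divided by DESeq2 median-of-ratios size factors (normalized counts), unless raw counts are named. The median log2 fold change of all tested loci was 0.04 on this scale and -0.77 when libraries were scaled to equal totals, so small differences turn with this choice, and values with equal totals are given beside the results they change.

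Annotated piRNA loci show why these intervals were drawn. Of 15363 piRNA loci in the annotation, 14714 (95.8%) lay on chromosome IV, 2816 of them in cluster 1 and 11388 in cluster 2. The 2 intervals together held 96.5% of the chromosome IV piRNA loci, and 510 lay elsewhere on the chromosome. At least 1 piRNA locus lay within the span of 442 of the 934 cluster genes (47.3%), on either strand, against 166 of the 2325 genes outside (7.14%). The share was 40.0% in cluster 1 and 55.0% in cluster 2, and in 286 of the 442 genes a piRNA locus overlapped an exon.

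At the left edge of cluster 1, *rfth-1* was just inside, with 40.7, 47.7 and 39.9 normalized counts in *lotr-1(sam117)* and 133, 114 and 115 in wild-type, and *gbb-2* was just outside with at most 3 raw counts in any library. At the right edge, *prkl-1* inside had at most 1 raw count, and C25A8.5 outside had 5, 6 and 5 raw counts in *lotr-1(sam117)* and 18, 18 and 15 in wild-type. For cluster 2, *nlp-17* inside had no counts and Y45F10A.7 outside had at most 3 at the left edge, and *flp-17* inside had at most 2 and *cnnm-1* outside at most 8 at the right edge.

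The cluster genes changed in both directions in about equal number. Of the 934, 770 had at least 1 count in some library and 469 (50.2%) received an adjusted p-value, the others being at 0 or below the mean count at which DESeq2's independent filter acted. Outside, 1320 of 2325 genes (56.8%) were tested. A locus was called when the DESeq2 test against a 2-fold change gave a Benjamini-Hochberg adjusted p below 0.1 over all loci. By that rule 27 cluster genes rose in *lotr-1(sam117)* and 27 fell, 5.76% of the tested cluster genes each, against 8.15% of all tested loci that rose and 8.14% that fell. Among all tested protein-coding genes, 7.25% rose and 8.26% fell. Genes outside the clusters were called less evenly, 74 up (5.61%) and 115 down (8.71%).

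Both clusters held calls in each direction. In cluster 1, 12 of 261 tested genes rose and 14 fell, and in cluster 2, 15 of 208 rose and 13 fell (8 with the intervals shortened by 250 kb at each end, and 21 with them lengthened). The median log2 fold change was 0.09 in cluster 1 and 0.17 in cluster 2, 0.11 over both, and -0.05 over the chromosome IV genes outside. When libraries were scaled to equal totals these medians became -0.72, -0.63, -0.69 and -0.85. The calls among the cluster genes became 15 up (3.19%) and 70 down (14.9%). On that scale 4.26% of all tested loci rose and 20.0% fell, and 3.17% and 22.2% of the genes outside. No test of a difference between the lists was made, so none of these shares is given as particular to the clusters.

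**Figure D1:**
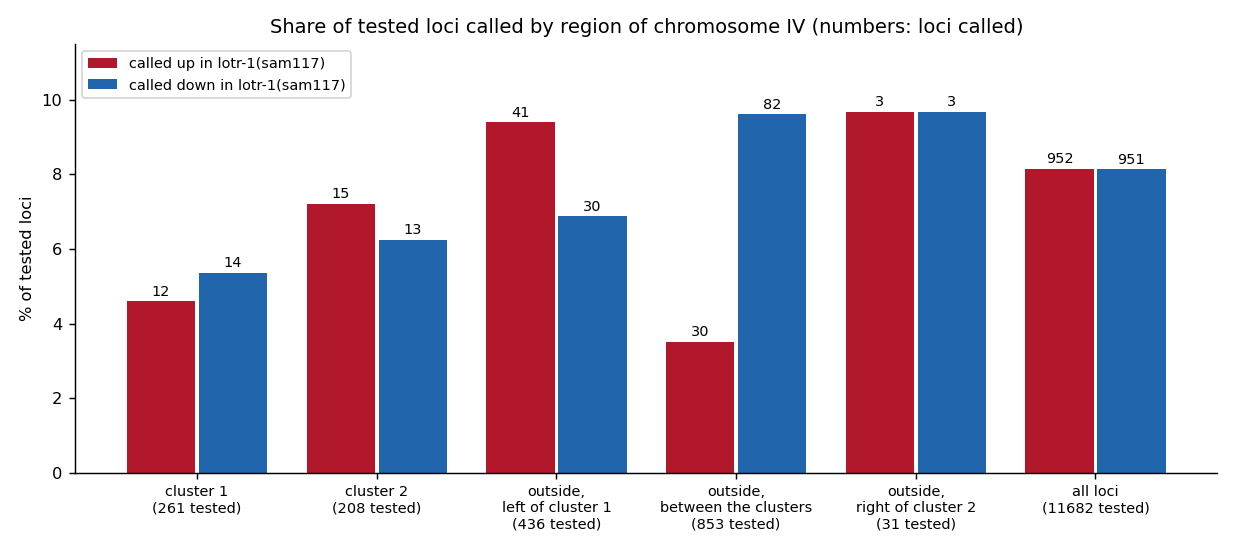
Share of tested loci called up (red) or down (blue) in *lotr-1(sam117)* against wild-type, in percent of the loci tested, for both piRNA clusters, for the chromosome IV genes left of, between and right of them, and for all loci, with the number called above each bar. Both clusters lie below the 8.15% and 8.14% of all loci in each direction, and the genes between the clusters hold 30 calls up and 82 down. All loci include loci that are not protein-coding. Over tested protein-coding genes alone 7.25% rose and 8.26% fell, beside 7.21% that rose in cluster 2.

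The rest of the chromosome was not uniform. Left of cluster 1, 41 of 436 tested genes rose and 30 fell. Between the clusters, 30 of 853 rose and 82 fell, with a median log2 fold change of -0.13. Only 31 genes were tested right of cluster 2, of which 3 rose and 3 fell.

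Cluster genes also carried fewer counts, and the level at which genes are tested bears on how many can be called. The tested cluster genes had a median of 33.2 normalized counts over the 6 libraries, and the tested genes outside had 55.6. Among genes whose mean reached 100 normalized counts, 16 of 158 cluster genes rose (10.1%) and 14 fell (8.86%), against 54 (11.7%) and 61 (13.3%) of 460 outside. Over all loci at that level, 15.6% rose and 12.7% fell, and over all protein-coding genes 13.6% and 13.0%. In cluster 1 the calls at that level were 6 up (6.59%) and 8 down (8.79%) of 91. In cluster 2 they were 10 up (14.9%) and 6 down (8.96%) of 67.

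Summed over genes, the clusters held a smaller part of the chromosome's 22G-RNAs in the mutant, and this does not depend on how libraries are scaled to each other. Of all raw counts at chromosome IV protein-coding genes, the cluster genes took 17.9%, 18.1% and 18.02% in the *lotr-1(sam117)* libraries and 23.7%, 23.6% and 23.5% in the wild-type libraries. The means were 18.02% ± 0.120 and 23.6% ± 0.0881 (SD, n = 3 each), and the genotypes did not overlap. With 3 libraries against 3 an exact permutation test cannot give a p below 0.1, so the values stand without one. The difference of -5.59 percentage points became -2.29 with both intervals shortened by 250 kb at each end.

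Cluster 1 accounted for most of the difference. It held 8.57% ± 0.0323 of the chromosome's counts in *lotr-1(sam117)* and 12.8% ± 0.0680 in wild-type, and cluster 2 held 9.44% ± 0.151 and 10.8% ± 0.0509 (SD, n = 3 each). The ratio of cluster 1 to cluster 2 counts within a library was 0.925, 0.890 and 0.910 in *lotr-1(sam117)*, against 1.19, 1.18 and 1.18 in wild-type. Cluster 2 was thus the larger of the pair in every mutant library and the smaller in every wild-type library.

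The genes outside moved with this share. The 5 chromosome IV genes with the highest mean count (*sqst-1*, C04G2.10, C01F6.14, C27D8.3 and *znf-782*) all lay outside the clusters. Without them the cluster genes held 22.6% in *lotr-1(sam117)* and 26.3% in wild-type, cluster 1 held 10.8% and 14.3%, and cluster 2 held 11.9% and 12.0%, with overlapping libraries for cluster 2. Without the 5 highest-count genes of each cluster instead, a choice made after seeing the data, the share was 10.7% against 17.0%, and the ratio of cluster 1 to cluster 2 was 1.27 ± 0.0150 in *lotr-1(sam117)* and 1.40 ± 0.00767 in wild-type.

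**Figure D2:**
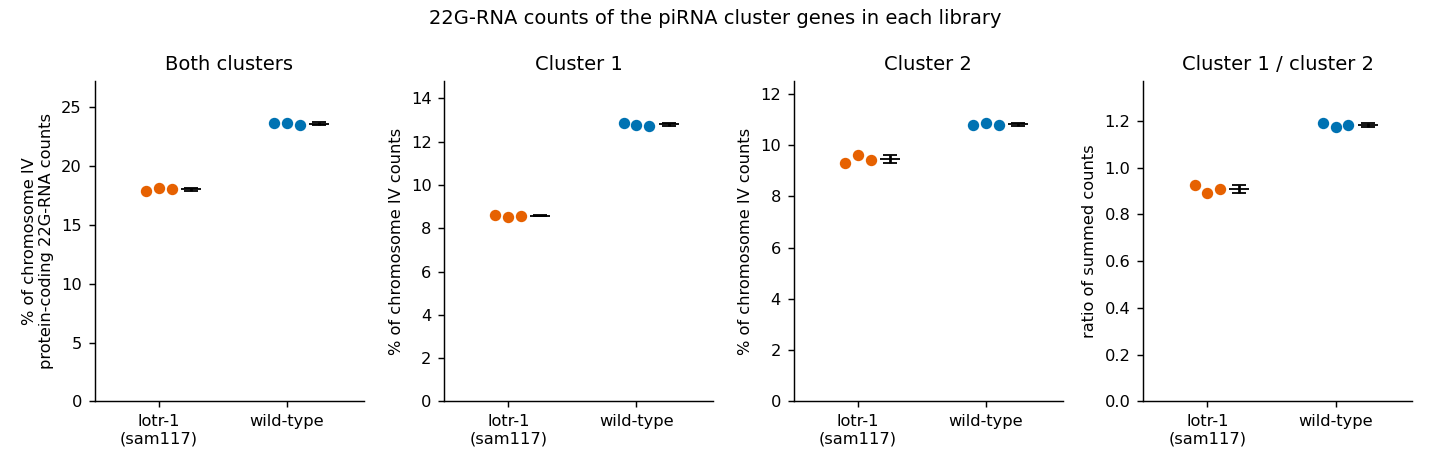
Percent of chromosome IV protein-coding 22G-RNA counts held by the cluster genes, by cluster 1 and by cluster 2, and the ratio of cluster 1 to cluster 2 counts, in each library (points, *lotr-1(sam117)* left, wild-type right) with mean and SD (black). Every *lotr-1(sam117)* library lies below every wild-type library in all 4 panels, with means of 18.02% and 23.6% for both clusters together.

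As sums of normalized counts, cluster 1 held 44932 ± 533 in *lotr-1(sam117)* and 40249 ± 711 in wild-type, and cluster 2 held 49481 ± 477 and 34013 ± 402 (SD, n = 3 each). The ratios of these sums were 1.12 and 1.45, against 1.79 for the chromosome IV genes outside. On the scale of equal totals the cluster sums turned round, to 34551 against 53444 in cluster 1 and 38051 against 45167 in cluster 2, while the outside ratio was 1.04. A few genes carried much of the gain: *csp-2*, ZK185.2 and *npp-26* gave 5198 of the 11217 normalized counts gained over the genes of cluster 1 that were higher, and Y73F8A.26, Y57G11C.51 and Y43D4A.6 gave 12456 of 20817 in cluster 2, although Y43D4A.6 was lower in *lotr-1(sam117)* with equal totals (-0.080).

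The most strongly changed genes are taken cluster by cluster, from those called whose mean reached 50 normalized counts. In cluster 1 the largest rise was at *npp-26* (WBGene00021198, 4764722 to 4767956, plus strand), named as a nuclear pore complex protein. It had 1395, 1393 and 1255 normalized counts in *lotr-1(sam117)* and 20.4, 17.3 and 22.6 in wild-type. The log2 fold change was 6.06 (SE 0.178, DESeq2 adjusted p = 1.77e-175). The genotypes did not come near each other.

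C55C3.7 (5678829 to 5682647, minus strand), whose introns hold 7 annotated piRNA loci, had 168, 186 and 168 normalized counts in *lotr-1(sam117)* and 8.51, 3.00 and 6.83 in wild-type (log2 fold change 4.85, SE 0.348, DESeq2 adjusted p = 4.83e-27). The caspase homolog gene *csp-2* (6307739 to 6315719, plus strand) had 2543, 2521 and 2492 against 281, 309 and 318 (log2 fold change 3.05, SE 0.0685, DESeq2 adjusted p = 9.31e-196). It was both among the largest rises and among the highest counts of its cluster.

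ZK185.2 rose to 2142 ± 74.9 normalized counts in *lotr-1(sam117)*, against 488 ± 14.0 in wild-type (SD, n = 3 each), a log2 fold change of 2.13. The trehalase gene *tre-2* had 229, 244 and 221 in *lotr-1(sam117)* and 57.0, 66.1 and 56.0 in wild-type (log2 fold change 1.96, SE 0.172, DESeq2 adjusted p = 3.30e-07), and was no longer called when libraries were scaled to equal totals (1.17, adjusted p = 0.986). The other 4 of these 5 rises were called on both scales.

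The largest fall of cluster 1 was at C11D2.3 (WBGene00015701, 6151813 to 6154677, plus strand). It had 4.07, 3.57 and 9.31 normalized counts in *lotr-1(sam117)* and 370.1, 360.3 and 321 in wild-type (log2 fold change -5.97, SE 0.421, DESeq2 adjusted p = 8.84e-31). A gene above 300 in every wild-type library was thus left with fewer than 10 in each mutant library.

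The collagen gene *col-111* (4655791 to 4657974, minus strand) had 73.3, 75.1 and 58.5 normalized counts in *lotr-1(sam117)* and 1270.3, 1054 and 1061 in wild-type (log2 fold change -4.03, SE 0.144, DESeq2 adjusted p = 8.26e-97). The forkhead transcription factor gene *pes-1* (5002748 to 5005486, plus strand) had 27.1, 31.0 and 45.2 against 565, 513 and 565 (log2 fold change -3.99, SE 0.192, DESeq2 adjusted p = 4.32e-53). F29B9.12 averaged 33.0 ± 6.79 normalized counts in *lotr-1(sam117)* and 149 ± 10.2 in wild-type, and C17H12.2 averaged 83.1 ± 22.7 and 364 ± 5.86 (SD, n = 3 each, log2 fold changes -2.17 and -2.14). All 5 falls were called on both scales.

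In cluster 2 the largest rise was at *xdh-1* (WBGene00010083, 14401114 to 14412894, minus strand), which encodes xanthine dehydrogenase, an enzyme of purine breakdown. Its span holds 66 annotated piRNA loci, 4 of them overlapping exons. It had 578, 585 and 577 normalized counts in *lotr-1(sam117)* and 4.25, 6.76 and 4.10 in wild-type. The log2 fold change was 6.85 (SE 0.339, DESeq2 adjusted p = 3.80e-65), the largest rise among the cluster genes tested.

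Next in order stood WBGene00194649 and Y57G11C.8, whose exons overlap on the same strand, so reads from the shared stretch cannot be assigned to one of them and their values are not independent. WBGene00194649 had 126, 113 and 154 normalized counts in *lotr-1(sam117)* and 1.70, 1.5 and 2.73 in wild-type (log2 fold change 6.03, SE 0.556). Y57G11C.8 had 195, 209 and 257 against 3.40, 7.51 and 6.83 (log2 fold change 5.19, SE 0.342).

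The heterochronic gene *lin-66* (13888079 to 13893986, plus strand), which acts in developmental timing upstream of *lin-28*, holds 14 annotated piRNA loci. It had 742, 730.4 and 717 normalized counts in *lotr-1(sam117)* and 45.1, 48.0 and 56.7 in wild-type (log2 fold change 3.86, SE 0.137, DESeq2 adjusted p = 5.26e-95). Y73F8A.32 had 1307, 1239 and 1264 against 135, 139 and 122 (log2 fold change 3.27, SE 0.0951, DESeq2 adjusted p = 5.51e-124). All 5 of these rises were also called with libraries scaled to equal totals.

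The largest fall of either cluster was at *afmd-2* (WBGene00012866, 13509224 to 13513433, plus strand), an arylformamidase gene of the kynurenine branch of tryptophan breakdown. It had 1.36, 3.57 and 0 normalized counts in *lotr-1(sam117)* and 558, 519 and 544 in wild-type (log2 fold change -8.30, SE 0.729, DESeq2 adjusted p = 2.82e-22). As summed raw counts these were 4 and 2144, a size-factor-corrected ratio of 314-fold lower in *lotr-1(sam117)* with an exact 95% interval of 123 to 1154 that covers counting error only. Its exons overlap on the same strand those of *seld-1*, the selenophosphate synthetase gene, where the spans share only 13509224 to 13509243. *seld-1* was tested and not called with size factors (log2 fold change -0.94, SE 0.161). It was called down with equal totals (-1.73, DESeq2 adjusted p = 2.69e-05).

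The adjacent gene on the opposite strand, *dcap-2* (13513369 to 13521870), the mRNA decapping enzyme, also fell. It had 32.6, 32.2 and 29.3 normalized counts in *lotr-1(sam117)* and 245, 268 and 273 in wild-type (log2 fold change -3.06, SE 0.218, DESeq2 adjusted p = 5.97e-20). Counting used strand, so this pair does not share reads although the gene spans overlap.

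The gene *icap-1* had 4.07, 4.77 and 6.65 normalized counts in *lotr-1(sam117)* and 121, 103 and 79.3 in wild-type (log2 fold change -4.29, SE 0.483). It overlaps the exons of the centriole assembly gene *sas-6*, which was not called with size factors (log2 fold change -1.24, SE 0.254). With equal totals *sas-6* was called down (-2.03, DESeq2 adjusted p = 0.000200). WBGene00219443 had 19.0, 21.4 and 13.3 against 211, 240.2 and 298 (log2 fold change -3.80, SE 0.277). The insulin-like peptide gene *ins-34* had 19.0, 10.7 and 12.0 against 123, 87.1 and 92.9 (log2 fold change -2.87, SE 0.346). The falls of *icap-1*, WBGene00219443 and *ins-34* were called on both scales.

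**Figure D3:**
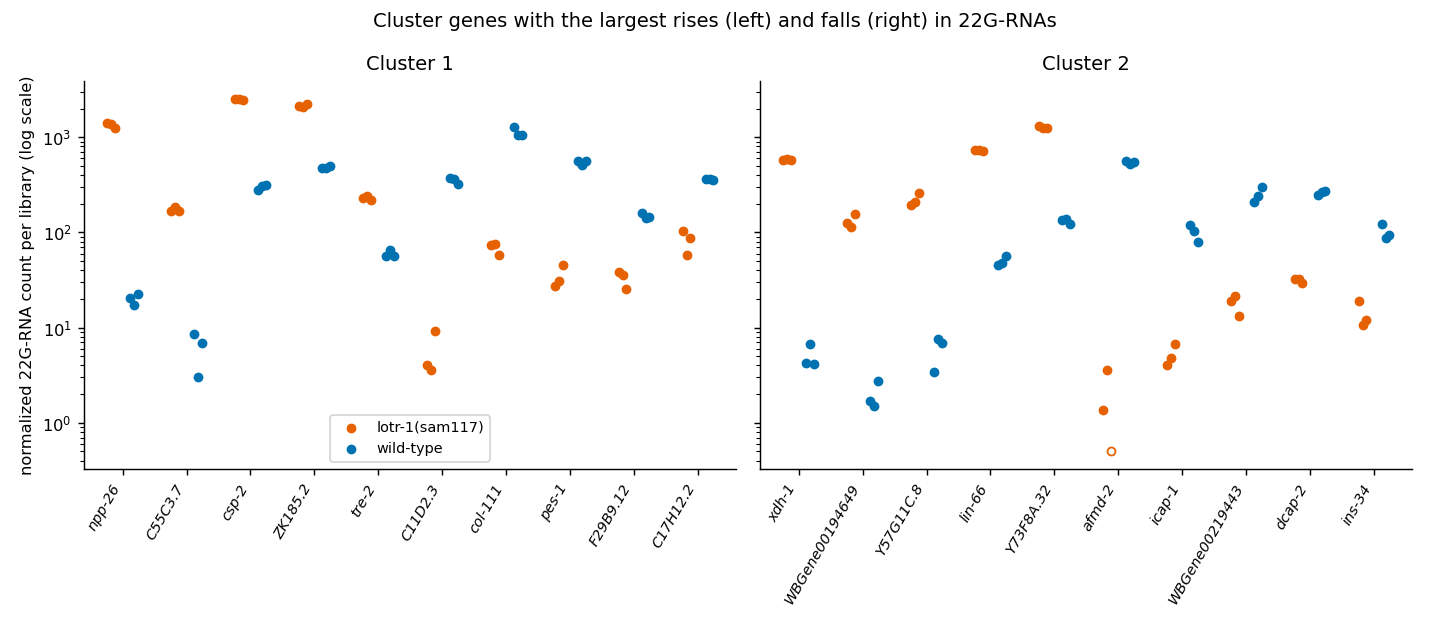
Normalized 22G-RNA counts per library on a log axis for the 5 largest rises and 5 largest falls of each cluster, *lotr-1(sam117)* (orange) left of wild-type (blue) for each gene, with a count of 0 drawn as an open circle at 0.5. The genes were chosen as called and without overlap between genotypes. The widest gaps are at *xdh-1*, with about 580 against 5 counts, and at *afmd-2*, with 0 to 3.57 against 519 to 558 counts.

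The other 34 called genes spanned smaller or less deeply counted changes. In cluster 1 the 7 other rises had log2 fold changes of 1.32 to 4.67 and the 9 other falls of -5.14 to -1.50. In cluster 2 the 10 other rises lay between 1.54 and 3.32 and the 8 other falls between -4.42 and -1.34. With libraries scaled to equal totals, 6 of the 12 rises of cluster 1 and 9 of the 15 rises of cluster 2 were still called, as were all 14 and all 13 falls.

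Some of these genes have known roles, and they were picked for description after their values were seen. The sex-determination genes *fem-1*, an ankyrin-repeat protein that promotes male fate, and *tra-3*, a calpain protease that promotes female fate, were called in opposite directions. *fem-1* had 84.1, 111 and 110.4 normalized counts in *lotr-1(sam117)* and 307, 315 and 277 in wild-type (log2 fold change -1.55, SE 0.156, DESeq2 adjusted p = 0.00331). *tra-3*, with 28 piRNA loci in its span, had 296, 284 and 239.5 against 101, 86.3 and 94.3 (log2 fold change 1.54, SE 0.154, DESeq2 adjusted p = 0.00366), and this rise was not called with equal totals (0.75).

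The isovaleryl-CoA dehydrogenase gene *ivd-1* fell, with a log2 fold change of -1.87, as did the carbonic anhydrase gene *bca-2* (-2.11) and the UDP-glucuronosyltransferase gene *ugt-22* (-1.89). *noah-2*, which encodes an apical extracellular matrix protein, rose to 624 ± 7.33 normalized counts in *lotr-1(sam117)*, against 109.8 ± 12.8 in wild-type (SD, n = 3 each, log2 fold change 2.51). *tctn-1*, the tectonic gene of the ciliary transition zone, had 59.7, 65.5 and 66.5 against 1.70, 3.00 and 2.73 (log2 fold change 4.67).

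At 3 more of the falls the mutant libraries held almost no reads. C06E7.2 had 1 raw count in *lotr-1(sam117)* and 65 in wild-type summed over libraries, a ratio of 38.1-fold lower (exact 95% interval 6.60 to 1528). *fbxa-98* had 1 and 40 (23.4-fold, 3.97 to 949), and B0513.4 had 3 and 61 (11.9-fold, 3.89 to 59.4). The intervals cover counting error only.

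A further 3 genes of cluster 1 with high counts, picked after their values were seen, were not called. *pgl-1*, a constitutive P granule protein, had 989, 988 and 1009 normalized counts in *lotr-1(sam117)* and 951, 926 and 910.2 in wild-type (log2 fold change 0.10, SE 0.0673). *htp-1*, a HORMA domain protein of meiotic chromosome axes, had 1349, 1249 and 1236 against 1003, 1042 and 1034 (log2 fold change 0.32, SE 0.0646). *snpc-3.1*, a subunit of the small nuclear RNA activating complex, had 979.7, 968 and 989 against 973, 847 and 866 (log2 fold change 0.13, SE 0.0737), with overlapping libraries. On the scale of equal totals these 3 genes stood at log2 fold changes of -0.69, -0.47 and -0.66.

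The genes with the highest counts were mostly below the 2-fold limit. In cluster 1, K08F11.1 had 7151, 6759 and 6676 normalized counts in *lotr-1(sam117)* and 7121, 6614 and 6497 in wild-type, with overlapping libraries (log2 fold change 0.03, SE 0.0443, and -0.76 with equal totals). Per kilobase of exon it averaged 16943 in *lotr-1(sam117)* and 16652 in wild-type, above the other 4 highest-count genes of its cluster. *tebp-2*, which encodes a double-stranded telomere-binding protein, had 2531, 2371 and 2537 against 2258, 2185 and 2237 (log2 fold change 0.15, SE 0.050, and -0.63 with equal totals).

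The nuclear hormone receptor gene *nhr-249* had 2639, 2445 and 2360.4 normalized counts in *lotr-1(sam117)* and 1239, 1307 and 1300.4 in wild-type. Its log2 fold change of 0.95 (SE 0.0574) stood just under the limit of the test against 2-fold, and C46G7.5 stood at 0.81 (SE 0.0625). Only *csp-2* among the 5 highest of cluster 1 was called.

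In cluster 2, Y73F8A.26 (WBGene00013531, 15473660 to 15477512, plus strand) had 6918, 6805 and 6703 normalized counts in *lotr-1(sam117)* and 703, 750.0 and 752 in wild-type. Its log2 fold change was 3.21 (SE 0.0484), with a DESeq2 adjusted p too small for the number format to hold. Y57G11C.51 had 6469.9, 7453 and 6664 against 2259, 1973 and 2059 (log2 fold change 1.71, SE 0.0577, DESeq2 adjusted p = 1.51e-33). It shares same-strand exons with Y57G11C.36, which had a mean of 34.7 normalized counts over all libraries, and its rise was not called with equal totals (0.92).

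The other 3 highest-count genes of cluster 2 were not called. Y57G11C.499 had 6907, 6517 and 6689 normalized counts in *lotr-1(sam117)* and 5401, 5399.8 and 5394 in wild-type (log2 fold change 0.31, SE 0.0380, and -0.48 with equal totals). Y43D4A.6 averaged 4165 ± 134 and 2548 ± 117 (SD, n = 3 each, log2 fold change 0.71, and -0.080 with equal totals). Y45F10C.6 averaged 2358 ± 98.7 and 2804 ± 166 (SD, n = 3 each, log2 fold change -0.25), without overlap between the genotypes.

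**Figure D4:**
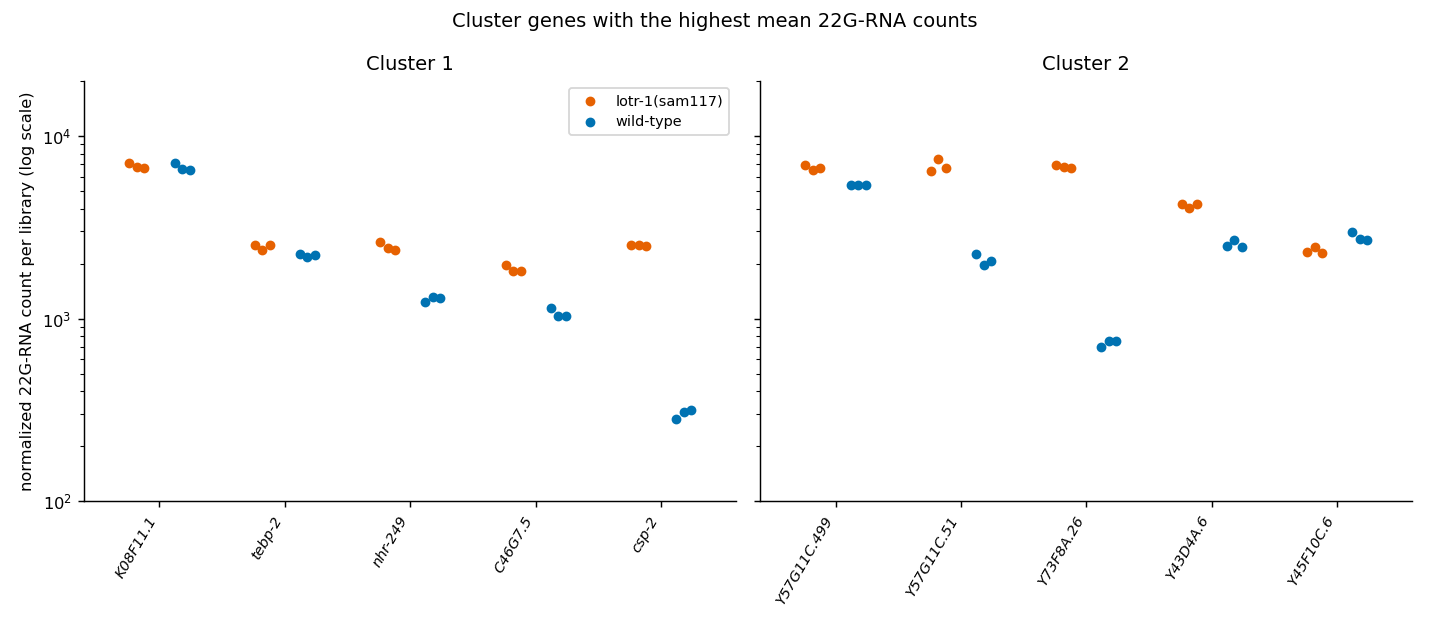
Normalized 22G-RNA counts per library on a log axis for the 5 genes of each cluster with the highest mean count, *lotr-1(sam117)* (orange) left of wild-type (blue) for each gene. At K08F11.1 the genotypes overlap, with 6676 to 7151 against 6497 to 7121 counts, whereas at Y73F8A.26 the 3 *lotr-1(sam117)* libraries lie between 6703 and 6918 and the 3 wild-type libraries between 703 and 752.

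Along the clusters, called genes were spread over most of the length. Half-megabase windows held between 0 and 6 calls in either direction. The window from 6.0 to 6.5 Mb of cluster 1 had 6 rises among 43 tested genes, of which only *csp-2* and *lgc-10* were also called with equal totals, and the window from 13.5 to 14 Mb of cluster 2 had 6 falls among 38, against 8.15% of all tested loci that rose and 8.14% that fell. DESeq2's test against 2-fold called none of the 13 genes tested from 16.0 to 16.5 Mb, and 0 had an unadjusted p below 0.05 in it. The edgeR test against 2-fold called 1 gene up and 1 down there. The most piRNA loci within gene spans were 470 in the window from 5.5 to 6.0 Mb of cluster 1, where 1 gene rose and 2 fell of 35 tested, and 932 in the window from 14 to 14.5 Mb of cluster 2, where 5 rose and 2 fell of 25.

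Called genes that were next to each other among the tested genes formed 10 pairs, 7 called in the same direction and 3 in opposite directions. The 7 include Y57G11C.8 and WBGene00194649, whose exons overlap on the same strand. No background for neighbouring genes was drawn, so the 7 and 3 stand as counts only. The pair *xdh-1* and F55B11.6, on the same strand and 3367 bases apart, went opposite ways: F55B11.6 had 342, 430.2 and 362 normalized counts in *lotr-1(sam117)* and 1029.5, 935 and 917 in wild-type (log2 fold change -1.34, SE 0.0941, DESeq2 adjusted p = 0.00240). A run of 3 plus-strand genes in cluster 2, *fbxa-98*, C08F11.7 and *ugt-22*, was called down, up and down, with log2 fold changes of -4.42, 1.55 and -1.89, but C08F11.7 was not called with equal totals (0.76).

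**Figure D5:**
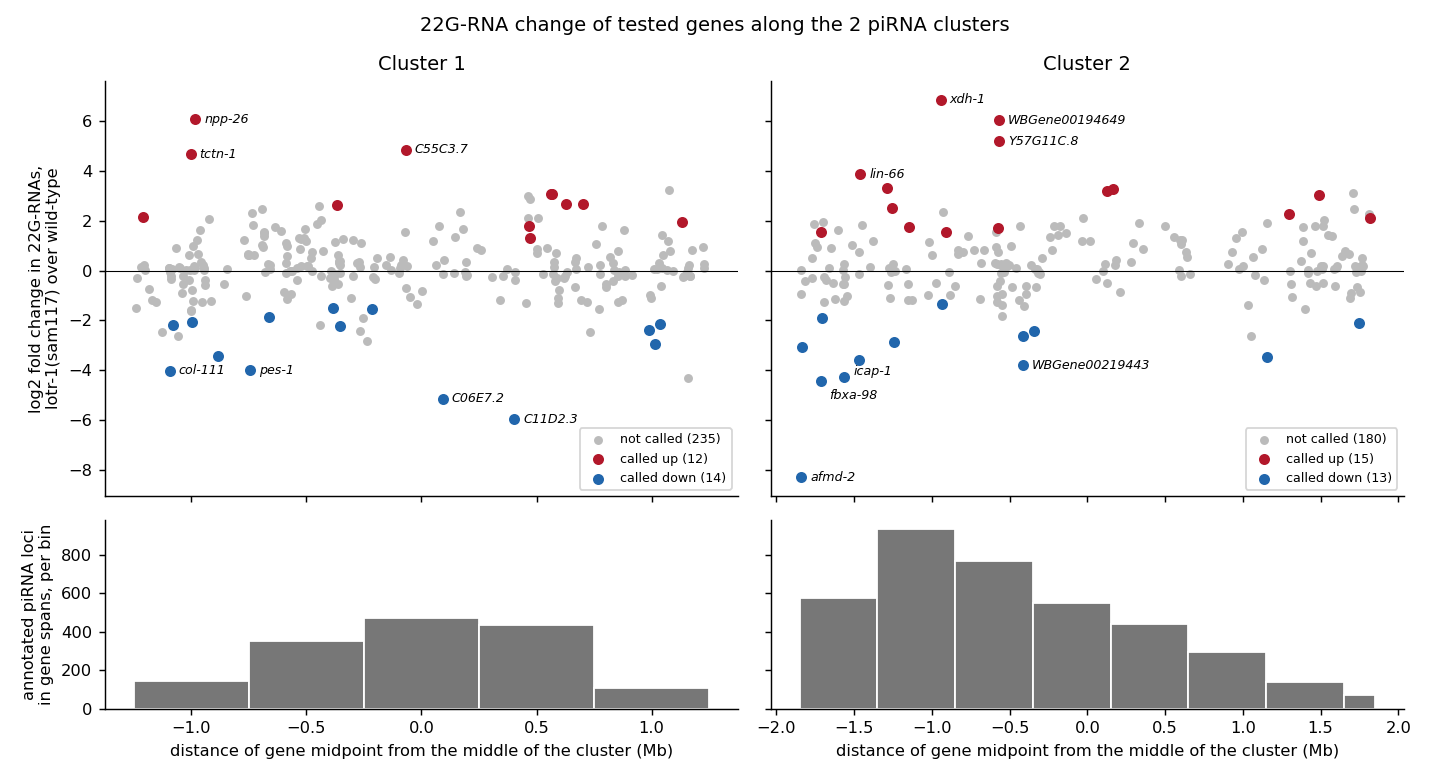
Upper panels, log2 fold change of 22G-RNAs in *lotr-1(sam117)* over wild-type for each tested gene of cluster 1 and cluster 2 against the distance of its midpoint from the middle of the cluster in Mb, with genes called up in red, called down in blue and not called in grey. Lower panels, annotated piRNA loci in gene spans per 0.5 Mb window (the last window of cluster 2 is shorter); rises (12 and 15) and falls (14 and 13) lie on both sides of the middle of each cluster.

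Genes that host piRNA loci carried fewer 22G-RNAs than their neighbours without them. Of the 492 cluster genes with no piRNA locus in their span, 319 (64.8%) were tested, against 87 of 303 (28.7%) with 1 to 9 loci and 63 of 139 (45.3%) with 10 or more. The median mean count of the listed genes was 9.89, 0.495 and 1.75 normalized counts in these 3 classes. Gene length moved with the classes: the median span was 1435, 2054 and 5908 bases, and its part in the result was not tested.

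Calls occurred in all 3 classes, beside 8.15% up and 8.14% down over all tested loci. Among genes with no piRNA locus 16 rose (5.02% of those tested) and 20 fell (6.27%), with a median over tested genes of 0.07 (-0.74 with equal totals). With 1 to 9 loci 6 rose and 6 fell (6.90% each, median 0.71, and -0.16 with equal totals), and with 10 or more 5 rose (7.94%) and 1 fell (1.59%, median 0.22, and -0.70 with equal totals). The 5 rises include *xdh-1*, *lin-66*, *tra-3* and *noah-2* of cluster 2 and the ligand-gated ion channel gene *lgc-10* of cluster 1, and the fall is *ugt-22*.

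The genes that host the most piRNA loci in cluster 1 were *kcc-2*, a potassium-chloride cotransporter, with 98 loci, *unc-5*, a netrin receptor, with 97, and the forkhead gene *fkh-7* with 78. *unc-5* had 1.36, 2.38 and 3.99 normalized counts in *lotr-1(sam117)* and 23.0, 15.8 and 16.4 in wild-type, without overlap (log2 fold change -2.83, SE 0.778, DESeq2 adjusted p = 0.113), just past the limit of 0.1. It was called by DESeq2 under TMM scaling (adjusted p = 0.098), total-count scaling (0.0028), the filter of at least 10 counts (0.078) and the test against no change (0.0010), and by both edgeR tests. It was not called with a replicate block (0.26), no low-count filter (0.17), a 5% FDR (0.11) or any library left out (0.17 to 0.40). *kcc-2* averaged 8.99 ± 1.99 and 10.7 ± 2.60, and *fkh-7* 17.1 ± 5.92 and 14.6 ± 3.92 (SD, n = 3 each), both with overlapping libraries. With equal totals the log2 fold change of *fkh-7* was -0.56, against 0.22 with size factors.

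In cluster 2, *jac-1*, the p120-catenin gene, held 142 piRNA loci, Y105C5A.15 held 118, and Y37A1A.4 and Y64G10A.7 held 112 each. *jac-1* averaged 26.4 ± 5.39 normalized counts in *lotr-1(sam117)* and 29.0 ± 4.38 in wild-type (SD, n = 3 each). Y105C5A.15 had 47.5, 44.1 and 45.2 against 17.9, 30.8 and 25.3 (log2 fold change 0.88, SE 0.334), not called. Y37A1A.4 averaged 6.85 and 6.20 (log2 fold change 0.16, and -0.63 with equal totals), and Y64G10A.7, at 1.29 and 1.78, was below the level tested.

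Gene families of the clusters differed in how often they were measurable at all. The few calls within families stand beside 8.15% up and 8.14% down over all tested loci. Of 81 chemoreceptor genes, which encode receptors of sensory neurons, 35 had any count and 4 were tested. One of them fell, *str-172*, with 5.43, 4.77 and 1.33 normalized counts in *lotr-1(sam117)* and 42.5, 40.5 and 40.3 in wild-type (log2 fold change -3.41, DESeq2 adjusted p = 0.000422). None of the 9 C-type lectin genes and none of the 6 *nspb* genes was tested.

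All 13 sperm-family genes (*msp* and *ssp* symbols among them) lay in cluster 1. All had counts and 9 were tested, with means of 2.64 to 10.5 normalized counts and log2 fold changes of 0.60 to 2.46. DESeq2's test against 2-fold called none of them and 0 had an unadjusted p below 0.05 in it. The edgeR test against 2-fold also called 0. With equal totals the range was -0.19 to 1.67. These genes have near-identical copies between which the authors' random placement of multiply aligning reads can move counts, so single values are uncertain.

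All 5 *skr* genes, relatives of the Skp1 subunit of ubiquitin ligases, lay in cluster 2 and were tested. Their log2 fold changes were 1.23 to 2.25 (0.45 to 1.47 with equal totals), and one rose, *skr-8*, with 50.2, 44.1 and 46.6 normalized counts in *lotr-1(sam117)* and 9.36, 9.76 and 13.0 in wild-type (DESeq2 adjusted p = 0.0252), a call lost with equal totals (1.33). Of 7 F-box genes 5 were tested and *fbxa-98* fell, on 1 raw count in *lotr-1(sam117)* and 40 in wild-type summed over libraries. Of 6 collagen genes 1 was tested, *col-111*, which fell. All 5 nuclear hormone receptor genes were tested, with log2 fold changes of -0.81 to 1.62. DESeq2's test against 2-fold called none of these 5, although *nhr-104* had an unadjusted p below 0.05 in it. The edgeR test against 2-fold called 1 up.

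Of a list of 23 gene symbols for piRNA transcription, processing and downstream amplification, 21 were found, none lay among the cluster genes, and 20 were tested. By DESeq2's test against 2-fold none rose and 1 fell, against 8.15% up and 8.14% down over all tested loci. In that test 0 rose at an unadjusted p below 0.05, and edgeR's test against 2-fold called 0 up. DESeq2's test against no change also found *parn-1* higher (log2 fold change 0.81, adjusted p = 1.57e-65, and 0.02 with equal totals). It found *tofu-1* lower (-1.07, adjusted p = 9.11e-11, and -1.86 with equal totals). Smaller changes passed that test too: *prg-1* was higher (0.27, adjusted p = 6.03e-07, and -0.52 with equal totals). Lower were *rrf-1* (-0.42), *hrde-1* (-0.24), *henn-1* (-0.74) and *snpc-1.1* (-0.53), each with a DESeq2 adjusted p below 0.1 against no change. The fall called against 2-fold was at *tofu-2*, a subunit of the enzyme complex that cuts the 5′ end of piRNA precursors. *tofu-2* (chromosome V) had 17.6, 34.6 and 31.9 normalized counts in *lotr-1(sam117)* and 124, 137 and 122 in wild-type (log2 fold change -2.17, SE 0.265, DESeq2 adjusted p = 8.85e-05). The list's median log2 fold change was 0.01, against 0.04 over all tested loci, and 3 of its genes were called down with libraries scaled to equal totals.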

How the data were processed

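The authors deposited one table per library of raw 22G-RNA counts per gene or transposon family, with no normalization. They trimmed adapters with cutadapt 2.4, aligned inserts to WBcel235 with Bowtie 1.2.2 (1 mismatch, 1 randomly chosen best position), and counted reads of 22 bases that began with G and lay antisense to exons with featureCounts 1.6.2 (Ensembl release 96). Collapsing of PCR duplicates by random adapter bases is not given in the sources used here, so intervals cover counting error only. RNA was treated with RppH before library preparation.

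Gene positions, biotypes and piRNA loci come from Ensembl release 115 (also WBcel235). Coordinates are 1-based. Genotypes were compared over all 22336 loci with DESeq2 1.42.0 in R 4.3.3 (Wald test against an absolute log2 fold change of 1, median-of-ratios size factors, independent filtering, Benjamini-Hochberg adjustment over the whole table, 10% FDR), following the 2-fold and 10% limits of the study. A positive fold change means more 22G-RNA in the mutant. Shares and ratios were summed from raw counts within each library. Scripts were tested on simulated counts. Summaries used Python 3.11.15 with pandas 2.3.3.

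Members and lists were chosen with earlier results of these data known. Named genes were, in each cluster, the 5 largest rises and 5 largest falls among called genes whose mean reached 50 normalized counts and that had no overlap between genotypes, the 5 highest mean counts and the 3 genes holding most piRNA loci, where a tie added 1 gene. Families were symbol prefixes with at least 5 cluster genes, with related prefixes pooled for the chemoreceptor, F-box and sperm families. The *lgc*, *nlp*, *irld* and *pqn* families had at most 2 tested genes each, and only *lgc-10* among them was called. The floor of detection was 3 counts, between 7.83e-05% and 9.52e-05% of a library. Alternatives were TMM and total-count scaling, tests against no change with a 2-fold limit, edgeR 4.0.16, other low-count filters, a 5% FDR, a replicate block, each library left out, and other cluster limits. Pairs of libraries of one genotype differed with a chi-square of 1.40 to 1.87 for each degree of freedom, so none was counted as a repeat of another. No sequences are shown, since none were used here.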

Additional observations from a re-analysis of the deposited data

How the results depend on the processing

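The calls among the cluster genes kept within 1.5 times of 27 up and 27 down under TMM scaling, edgeR's test against 2-fold, other low-count filters, a 5% FDR and each library left out. Under total-count scaling they were 15 up and 70 down (cluster 1: 6 and 39, cluster 2: 9 and 31, outside: 42 and 294), beside 4.26% up and 20.0% down over all tested loci. The medians became -0.69 over the cluster genes, -0.72 in cluster 1, -0.63 in cluster 2 and -0.85 outside. On that scale the log2 fold changes of K08F11.1 (-0.76), *tebp-2* (-0.63), *fkh-7* (-0.56), Y57G11C.499 (-0.48), Y43D4A.6 (-0.080) and Y37A1A.4 (-0.63), none of them called, turned negative. DESeq2's test against no change with a 2-fold limit called 71 and 64 (31 and 37, 40 and 27, outside 159 and 242), and edgeR's called 49 and 58 (22 and 34, 27 and 24, outside 130 and 219). Both called 2 piRNA pathway genes down and total-count scaling called 3. Shares over all loci are not given for the tests against no change, so no difference from the background is read from their counts. At a mean of at least 100 the calls were 16 and 14 (6 and 8, cluster 2 down 6, outside down 61). edgeR's test against 2-fold called 23 down in cluster 1 and 23 up in cluster 2.

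The small medians moved with most settings. For the cluster genes, cluster 1, cluster 2 and outside they were 0.047, 0.021, 0.069 and -0.087 with edgeR, 0.058, 0.025, 0.099 and -0.071 with at least 10 counts in 3 libraries, and -0.083 outside with TMM (0.074 over the cluster genes, 0.13 in cluster 2). They were 0.17, 0.21 in cluster 2 and 0.0050 outside with the DESeq2 test against no change, and 0.19, 0.26 in cluster 2 and 0.0063 outside with no low-count filter. Leaving out 1 library gave 0.060 to 0.11 over the cluster genes, 0.031 to 0.10 in cluster 1, 0.10 to 0.13 in cluster 2 and -0.11 to -0.045 outside. It also gave -0.017 to 0.052 for K08F11.1, -0.013 to 0.46 for *fkh-7* and -0.093 to 0.43 for Y37A1A.4, and TMM gave -0.023 for K08F11.1. No call among the 20 largest changes was lost with any library left out.

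Limits shortened by 250 kb at both ends gave 8 falls in cluster 2, medians of 0.16 and 0.14 in cluster 1, and a difference in share of -2.29 percentage points in place of -5.59. Lengthened limits gave 21 falls, a median of 0.089 in cluster 2, -7.03 points and a difference in the cluster ratio of -0.31 in place of -0.28. Without the 5 highest genes of chromosome IV the share differed by -3.66 points. Without the 5 highest-count genes of each cluster, tried after seeing the data, it differed by -6.28 points and the ratio by -0.13. The causes of these moves were not tested.

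Replicate numbers did not pair the libraries: same-numbered libraries correlated at 0.01, -0.01 and 0.03 in their deviations from the genotype means. With a replicate block 22 cluster genes were called up and 24 down, with medians of 0.14 in cluster 2 and -0.073 outside.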
